A study of Mus musculus with 18 samples.

Results

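A group of 42 genes for the non-collagen matrix of the liver and its remodeling was examined, out of 23352 gene symbols measured. The genes were taken by name, with earlier results of these data known. Of these, 29 were grouped as structural in a broad sense (adhesive and matricellular proteins, proteoglycans, basement membrane and elastic fibre proteins). The others are 3 lysyl oxidase crosslinkers, 2 genes that fold or process collagen, 5 matrix metalloproteinases and 3 of their inhibitors. Poly(A) RNA was sequenced from the livers of 18 male mice aged 20 weeks and fed a high-fat diet (HFD), from 9 wild-type (WT) and 9 *Gpr180*KO animals, each giving 1 library. The *Gpr180*KO mice are homozygous for a CRISPR/Cas9 deletion of 1 exon of *Gpr180*, a G protein-coupled receptor gene, made in the C57BL/6J background, and both genotypes were derived by mating heterozygous mice after backcrossing. The deletion is present in the whole body, so no cell type of the liver is singled out by the model, and a shortened *Gpr180* transcript can still be made. Levels are in FPKM, the reads of a gene scaled to the length of its transcript and to the mapped reads of the library, which allows levels to be compared between genes.

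The extracellular matrix of the liver is thin in health and lies mostly in the space of Disse, around portal tracts and under vessels. Hepatic stellate cells and portal fibroblasts make most of its fibrillar proteins and proteoglycans, endothelial cells add basement membrane proteins, and hepatocytes secrete plasma fibronectin. The matrix metalloproteinases cut matrix proteins, the TIMP proteins inhibit them, and lysyl oxidases crosslink collagen and elastin. In injured, fat-laden livers this matrix is known to expand into a scar.

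*Gpr180* itself ranged from 4.46 to 9.24 FPKM in WT livers and from 0.876 to 1.99 FPKM in *Gpr180*KO livers, without overlap. The marker genes of hepatocytes summed to 28839 to 37860 FPKM (median 33907.7) in WT and 33765 to 66033 FPKM (median 36447.5) in *Gpr180*KO livers. The highest of these sums was that of KO5. The defining markers of the labelled tissue were thus present. Titles were written in 2 ways, which were taken as series 1 (WT1 to WT4 and KO1 to KO4) and series 2 (the other 5 mice of each genotype). Relative depth, taken from genes with few reads, was 60.8 to 100% of the deepest library in WT and 44.3 to 93.5% in *Gpr180*KO mice. WT9, a WT mouse of series 2, stood apart in these genes: it was the lowest WT liver for 31 of the 42 genes, against 26.0% of all genes tested. KO5 stood apart over all genes, being the lowest *Gpr180*KO liver for 39.3% of them and the highest for 25.2%. Counts are therefore given also without these libraries. The FPKM values of the median gene were lower in *Gpr180*KO livers by 0.13 on the log2 scale, and for 76.9% of all genes tested the mean was lower there. Median-of-ratios scaling between libraries moved this median to 0.02, so results are also given on that scale.

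RefSeq promoter windows (GRCm38.p6, 250 bases before to 50 after a start) were matched for 27 of the 42 genes. Those printed here belong to genes that the results turn on: *Timp1*, *Postn* and *Nid1*, which fell in *Gpr180*KO livers, the neighbours *Mmp12* and *Mmp13*, and *Ecm1*, which did not pass the test. Each is written 5′ to 3′ on the strand of the gene. Capitals mark the letters TGANTCA (the AP-1 motif), GGAATG (the TEAD motif) and TATAAA (the TATA box), searched on both strands. No marked stretches overlapped each other. *Postn* and *Mmp12* each had another window at another start, which is not printed and held none of the letters marked by capitals. The window of *Timp1* is chrX:20869916-20870215 (plus strand), that of *Postn* chr3:54360857-54361156 (plus), that of *Nid1* chr13:13437352-13437651 (plus), that of *Mmp12* chr9:7347124-7347423 (plus), that of *Mmp13* chr9:7272264-7272563 (plus) and that of *Ecm1* chr3:95739520-95739819 (minus).
Timp1: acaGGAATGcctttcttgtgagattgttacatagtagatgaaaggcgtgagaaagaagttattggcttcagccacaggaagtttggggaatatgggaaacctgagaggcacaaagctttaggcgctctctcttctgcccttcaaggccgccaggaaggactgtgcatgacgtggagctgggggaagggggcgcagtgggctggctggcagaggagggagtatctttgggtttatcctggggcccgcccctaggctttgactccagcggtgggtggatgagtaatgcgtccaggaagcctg
Postn: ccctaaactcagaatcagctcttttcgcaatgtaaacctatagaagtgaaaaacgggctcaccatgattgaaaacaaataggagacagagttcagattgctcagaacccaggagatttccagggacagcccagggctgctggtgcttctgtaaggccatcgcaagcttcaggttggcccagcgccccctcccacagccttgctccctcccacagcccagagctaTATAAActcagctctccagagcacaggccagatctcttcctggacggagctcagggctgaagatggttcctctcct
Nid1: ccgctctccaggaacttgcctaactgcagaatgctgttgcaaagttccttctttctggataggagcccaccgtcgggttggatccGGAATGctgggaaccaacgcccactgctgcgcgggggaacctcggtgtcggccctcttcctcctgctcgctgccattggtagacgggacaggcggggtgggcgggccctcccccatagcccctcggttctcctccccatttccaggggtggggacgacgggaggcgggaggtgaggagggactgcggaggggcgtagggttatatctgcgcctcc
Mmp12: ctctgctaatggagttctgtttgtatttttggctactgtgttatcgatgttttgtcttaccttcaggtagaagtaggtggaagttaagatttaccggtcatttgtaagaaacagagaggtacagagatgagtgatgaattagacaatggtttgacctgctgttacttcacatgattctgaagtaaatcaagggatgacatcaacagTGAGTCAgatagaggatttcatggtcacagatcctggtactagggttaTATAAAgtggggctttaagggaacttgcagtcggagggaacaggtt
Mmp13: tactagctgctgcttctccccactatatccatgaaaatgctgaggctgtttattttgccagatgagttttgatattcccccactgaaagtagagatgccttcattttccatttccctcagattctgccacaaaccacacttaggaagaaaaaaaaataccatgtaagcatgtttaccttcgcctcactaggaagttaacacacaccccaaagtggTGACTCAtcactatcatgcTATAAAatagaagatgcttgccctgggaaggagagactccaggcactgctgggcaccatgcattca
Ecm1: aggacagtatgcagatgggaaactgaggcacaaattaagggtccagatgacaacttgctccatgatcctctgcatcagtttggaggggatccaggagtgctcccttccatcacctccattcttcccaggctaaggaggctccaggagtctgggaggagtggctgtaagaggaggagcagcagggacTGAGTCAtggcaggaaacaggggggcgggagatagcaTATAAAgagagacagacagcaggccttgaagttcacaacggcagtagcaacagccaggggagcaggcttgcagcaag
*Mmp12* and *Mmp13* carried the AP-1 letters 44 and 35 bases before the start, and *Ecm1* carried them 64 bases before it. *Efemp1* was the other matched gene with this match, so that 4 of the 27 genes (14.8%) held it, against 8.97% of the 27025 symbols in the table and 7.81% of its 32851 promoters. The TATA letters stood 26 bases before the start in *Postn* and 27 bases before it in *Ecm1*, 16 bases before it in *Mmp13*, 126 bases before it in *Thbs2* and 126 or 205 bases before the starts listed for *Tnc*. In the window printed for *Mmp12* they began at base 5 of the transcribed part. They were found for 6 of the 27 genes (*Ecm1*, *Mmp12*, *Mmp13*, *Postn*, *Thbs2* and *Tnc*, 22.2%), against 15.7% of symbols and 13.6% of promoters. The TEAD letters were found for *Nid1* and *Timp1* alone (7.41%), against 16.6% of symbols and 14.7% of promoters. GGGCGG, the GC box, which is not in capitals, was held by 20 of the 27 genes (74.1%), against 38.2% of symbols and 35.7% of promoters. Genes that fell and genes that did not pass the test were found on both sides of the AP-1 and TATA matches.

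Under HFD 18 of the 42 non-collagen matrix genes were called lower in *Gpr180*KO livers, with *Timp1*, *Mmp12*, *Thbs1* and *Lum* showing the largest differences among those called. Of the 42 genes, 31 had a mean of at least 1 FPKM over the 18 libraries and were tested with limma on log2(FPKM + 0.1). Some passed this level only through the WT livers. Of those called, *Thbs1*, *Timp1*, *Mmp12* and *Mmp2* had *Gpr180*KO means below it (0.356, 0.544, 0.683 and 0.854 FPKM). At an adjusted p under 0.05, 18 of the 31 fell and 0 rose, where 4.28% of all 10835 genes tested fell and 0.452% rose. The genes were chosen with earlier results of these data known, so these shares are not an independent test of the group. At an unadjusted p under 0.05 the count was 24 of 31, all lower, against 19.6% of all genes. The median log2 difference of the 31 genes was -0.68, and that of all genes tested was -0.13. The pseudocount makes differences of genes near 0 FPKM smaller than their ratios. With median-of-ratios scaling 11 of the 31 fell and 0 rose, against 1.36% and 1.35% of all genes, and the median of the 31 was -0.53. Of the 18 called genes, 8 were called in each of the 18 fits that left out 1 library: *Postn*, *Thbs1*, *Sparcl1*, *Lum*, *Dcn*, *Efemp1*, *Adamts2* and *Timp1*. The others ranged from 4 of these fits for *Sparc*, 5 for *Lamb1* and 6 for *Mmp12* to 17 for *Bgn*, *Nid1* and *Loxl2*. The count of genes that fell was 8 without WT6 (against 1.07% of all genes in that fit), 11 without WT1 or WT2 (1.35% in each), and 12 without KO6, KO7 or KO8 (1.62 to 1.85%). It was 22 without WT9 (7.79%) and 22 without both WT9 and KO5 (10.4%). With the series as a block term it was 21 (9.52%), the 3 further genes being *Mmp14*, *Serpinh1* and *Emilin1*. The livers are bulk tissue, in which fewer cells of a type and less RNA per cell cannot be told apart.

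**Figure D1:**
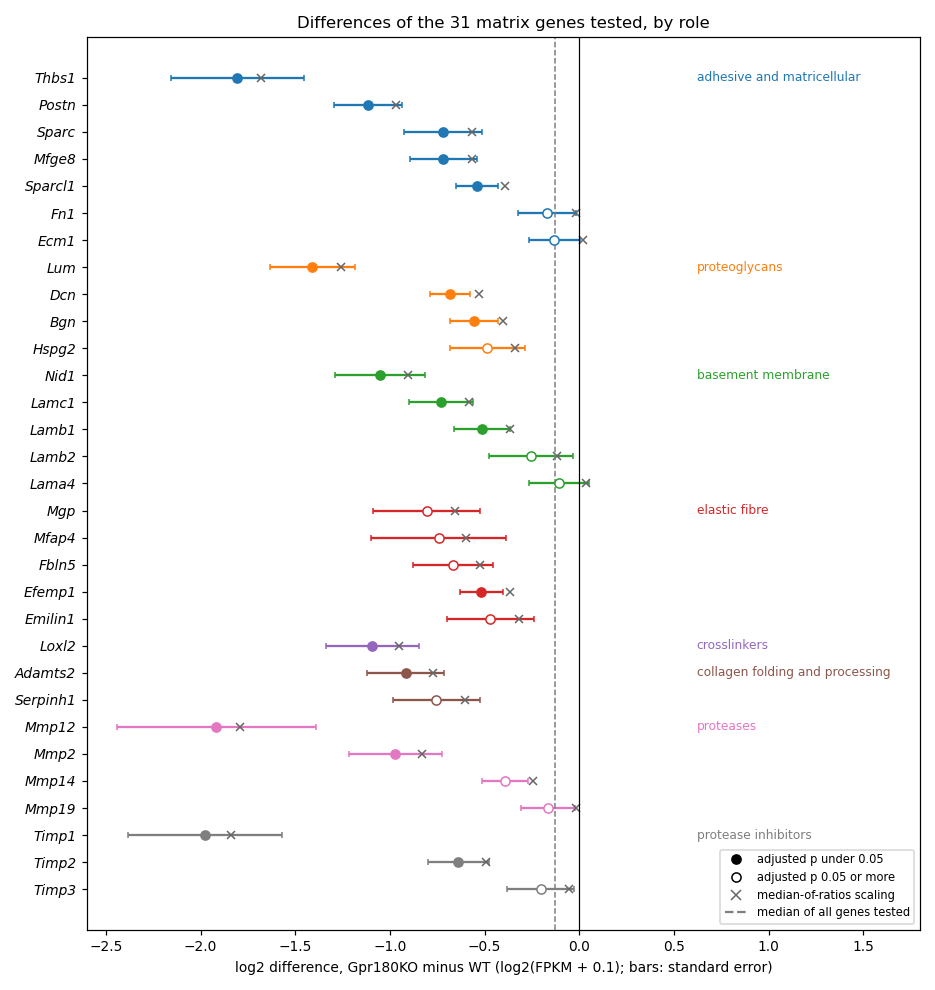
Log2 difference between *Gpr180*KO and WT livers (x axis, log2(FPKM + 0.1), 9 mice per genotype) of the 31 genes tested, grouped by role; points are limma estimates with their standard error, filled where the adjusted p is under 0.05, crosses give the estimate after median-of-ratios scaling, and the dashed line is the median of all genes tested. All 31 points lie below 0, from -1.98 for *Timp1* to -0.11 for *Lama4*, and the crosses of *Ecm1* and *Lama4* lie above 0.

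Of the 9 adhesive and matricellular genes, 7 were tested and 5 fell. *Postn*, which encodes periostin, a matricellular protein of injured tissue, ran from 4.25 to 13.3 FPKM (median 8.61) in WT livers and from 3.04 to 4.60 FPKM (median 3.62) in *Gpr180*KO livers. In 7 of the 9 *Gpr180*KO livers it was below the lowest WT liver, WT9, and the log2 difference was -1.12 (standard error 0.18, adjusted p = 0.00631). *Thbs1*, the gene of thrombospondin 1, which can activate latent TGFβ, ran from 0.312 to 3.71 FPKM (median 1.40) in WT and from 0.156 to 0.726 FPKM (median 0.311) in *Gpr180*KO livers. All WT livers other than WT9 were above the highest *Gpr180*KO liver, and the log2 difference was -1.81 (standard error 0.35, adjusted p = 0.0132). The collagen-binding glycoprotein gene *Sparc* ran from 20.3 to 75.2 FPKM (median 49.7) in WT and from 17.7 to 39.2 FPKM (median 28.6) in *Gpr180*KO livers. The groups overlapped, with 2 of the 9 *Gpr180*KO livers below the lowest WT liver, and the log2 difference was -0.72 (standard error 0.21, adjusted p = 0.0482). Its relative *Sparcl1* ran from 2.45 to 3.68 FPKM (median 2.96) in WT and from 1.59 to 2.63 FPKM (median 2.06) in *Gpr180*KO livers, a log2 difference of -0.54 (adjusted p = 0.0154). *Mfge8*, whose product binds dying cells and integrins, ran from 5.69 to 13.2 FPKM (median 8.99) in WT and from 3.78 to 9.42 FPKM (median 5.62) in *Gpr180*KO livers, a log2 difference of -0.72 (adjusted p = 0.0289). With median-of-ratios scaling *Postn* and *Thbs1* kept an adjusted p under 0.05, and *Sparc* (0.101), *Sparcl1* (0.0771) and *Mfge8* (0.0762) did not.

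The most abundant gene of the group, *Fn1*, which encodes fibronectin, did not pass the test. It ran from 212 to 291 FPKM (median 230.1) in WT and from 92.6 to 264 FPKM (median 224) in *Gpr180*KO livers, with KO5 far below the other 8 *Gpr180*KO livers. The log2 difference was -0.17 (standard error 0.15, adjusted p = 0.516), and it was 0.0155 without WT9 and KO5. *Ecm1*, a secreted protein gene known from stellate cells and hepatocytes, ran from 57.0 to 82.3 FPKM (median 64.3) in WT and from 37.3 to 101 FPKM (median 57.7) in *Gpr180*KO livers. Its log2 difference was -0.13 (adjusted p = 0.565), or 0.02 with median-of-ratios scaling. *Fn1* made up 33.3% of the summed FPKM of the 42 genes in WT livers and 40.6% in *Gpr180*KO livers. The sum itself was 650.4 to 788 FPKM in WT and 430.04 to 646 FPKM in *Gpr180*KO livers. The lowest WT liver, WT9, and the highest *Gpr180*KO liver, KO1, were close together, and median-of-ratios scaling was not applied to the sum. The 5 most abundant genes (*Fn1*, *Dcn*, *Ecm1*, *Bgn* and *Sparc*) made up 78.2% of it in WT and 82.0% in *Gpr180*KO livers.

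Among the 5 proteoglycan genes, 4 were tested and *Dcn*, *Lum* and *Bgn* fell, also with median-of-ratios scaling. They encode small leucine-rich proteoglycans, which bind collagen fibrils. *Dcn*, the gene of decorin, was at 116 to 196 FPKM (median 142) in WT and 63.8 to 103 FPKM (median 92.4) in *Gpr180*KO livers. The genotypes did not overlap, all 9 *Gpr180*KO livers being lower, as for 0.175% of all genes tested, and *Dcn* was the 1 gene of the 31 with this pattern. The log2 difference was -0.68 (standard error 0.11, adjusted p = 0.00631). *Lum*, the gene of lumican, lies beside *Dcn* on chromosome 10 of GRCm38, with 47.3 kb between them. It ran from 3.47 to 13.3 FPKM (median 7.95) in WT and from 1.46 to 4.73 FPKM (median 3.18) in *Gpr180*KO livers. All WT livers but WT9 were above the highest *Gpr180*KO liver, and the log2 difference was -1.41 (standard error 0.23, adjusted p = 0.00631). *Bgn*, the gene of biglycan, ran from 48.3 to 73.4 FPKM (median 67.1) in WT and from 27.4 to 59.9 FPKM (median 48.3) in *Gpr180*KO livers, a log2 difference of -0.56 (adjusted p = 0.0221). *Hspg2*, which encodes the basement membrane proteoglycan perlecan, had a log2 difference of -0.48 and an adjusted p of 0.154.

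**Figure D2:**
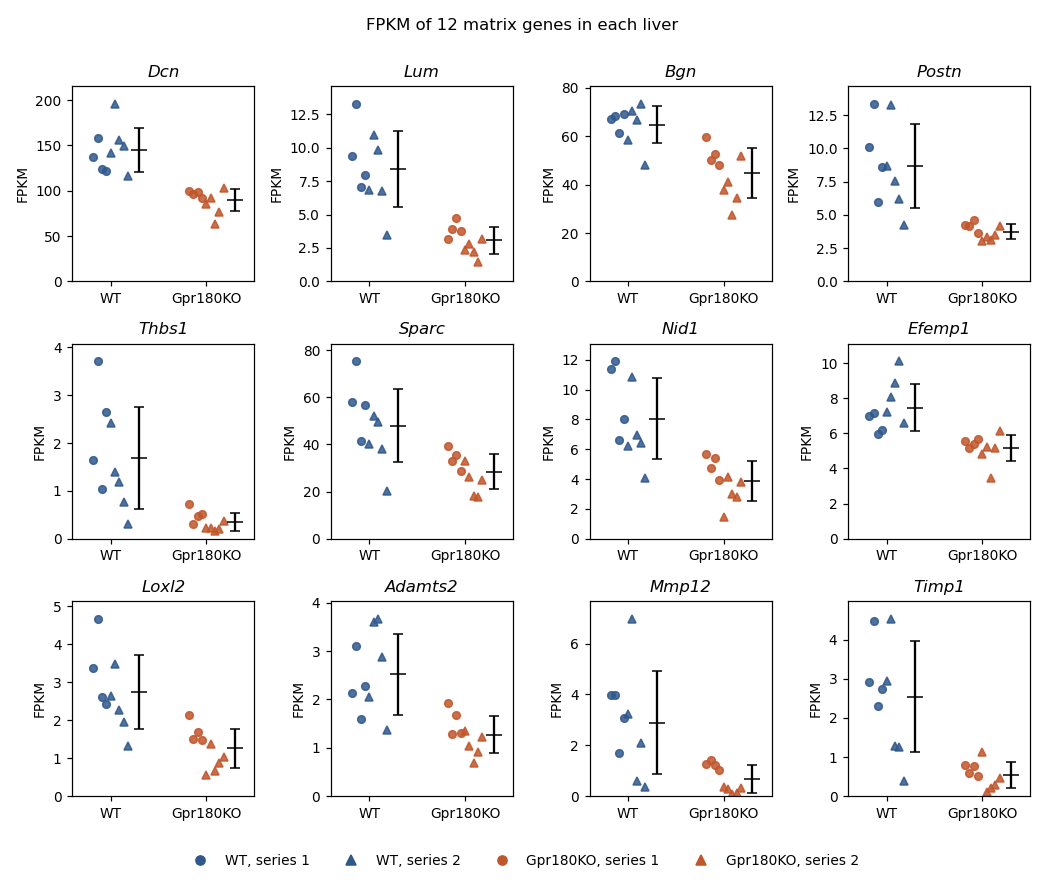
FPKM (y axis, from 0) of 12 matrix genes in each of the 9 WT and 9 *Gpr180*KO livers; circles are series 1, triangles are series 2, and the bars to the right are the mean and SD of each genotype. For *Dcn* the highest *Gpr180*KO liver, 103 FPKM, is below the lowest WT liver, 116 FPKM, and for *Lum*, *Postn* and *Thbs1* only WT9 lies within the *Gpr180*KO range.

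Of the 6 basement membrane genes, 5 were tested and 3 fell. *Nid1*, which encodes nidogen 1, a linker of laminin and type IV collagen, ran from 4.07 to 11.9 FPKM (median 6.93) in WT and from 1.43 to 5.69 FPKM (median 3.95) in *Gpr180*KO livers. In the *Gpr180*KO group 5 livers lay below the lowest WT liver, and the log2 difference was -1.05 (standard error 0.24, adjusted p = 0.0209). The laminin chain genes *Lamc1* (log2 difference -0.73, adjusted p = 0.0227) and *Lamb1* (-0.51, adjusted p = 0.0482) also fell. *Lamc1* ran from 2.60 to 5.09 FPKM (median 3.83) in WT and from 1.30 to 3.44 FPKM (median 2.51) in *Gpr180*KO livers. *Lamb1* ran from 1.89 to 3.37 FPKM (median 2.94) in WT and from 1.25 to 2.64 FPKM (median 1.95) in *Gpr180*KO livers. Both groups of livers overlapped for each of these genes. With median-of-ratios scaling *Nid1* and *Lamc1* were called and *Lamb1* was not (adjusted p = 0.11). The laminin genes *Lamb2* (log2 difference -0.25, adjusted p = 0.504) and *Lama4* (-0.11, adjusted p = 0.702, or 0.04 with median-of-ratios scaling) did not pass the test.

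Of the 9 elastic fibre genes, 5 were tested and 1 fell. That gene was *Efemp1*, which encodes fibulin 3, at 5.99 to 10.1 FPKM (median 7.18) in WT and 3.44 to 6.12 FPKM (median 5.25) in *Gpr180*KO livers. In 8 of the 9 *Gpr180*KO livers it was below the lowest WT liver, and the log2 difference was -0.52 (standard error 0.11, adjusted p = 0.0169; 0.0677 with median-of-ratios scaling). The other tested genes of this role had log2 differences from -0.47 (*Emilin1*) to -0.81 (*Mgp*, an inhibitor of calcification), with adjusted p from 0.0707 (*Fbln5*) to 0.237 (*Emilin1*). *Mfap4* had a log2 difference of -0.74 and an adjusted p of 0.223. Without WT9, *Fbln5* (adjusted p = 0.0255) and *Mfap4* (0.0469) were called, and with the series as a block *Emilin1* was (0.0308). The standard errors of these 4 genes were 0.21 to 0.35.

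Of the genes for crosslinking, folding and processing collagen, 3 were tested, and *Loxl2* and *Adamts2* fell. *Loxl2*, the 1 lysyl oxidase gene that passed the level filter, ran from 1.31 to 4.67 FPKM (median 2.60) in WT and from 0.568 to 2.14 FPKM (median 1.38) in *Gpr180*KO livers, a log2 difference of -1.09 (standard error 0.24, adjusted p = 0.0205). *Adamts2*, which encodes the protease that removes the amino-terminal propeptide of procollagen, ran from 1.36 to 3.67 FPKM (median 2.27) in WT and from 0.685 to 1.93 FPKM (median 1.29) in *Gpr180*KO livers. Its log2 difference was -0.92 (standard error 0.20, adjusted p = 0.0198), and 7 of the 9 *Gpr180*KO livers lay below the lowest WT liver. Both were called with median-of-ratios scaling too. *Serpinh1*, which encodes the collagen chaperone HSP47, ran from 5.45 to 23.9 FPKM (median 15.1) in WT and from 4.72 to 11.99 FPKM (median 8.77) in *Gpr180*KO livers. WT9 was the lowest WT liver, and the log2 difference of -0.75 did not pass the test (standard error 0.23, adjusted p = 0.062). It was called without WT9 (adjusted p = 0.00638), with the series as a block (0.0205) and in series 1 alone (0.0419).

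Of the 3 TIMP genes, *Timp1* and *Timp2* fell and *Timp3* did not pass the test. *Timp1*, the inducible inhibitor known as a marker of fibrosis, ran from 0.399 to 4.54 FPKM (median 2.75) in WT and from 0.0954 to 1.14 FPKM (median 0.511) in *Gpr180*KO livers. All WT livers but WT9 were above the highest *Gpr180*KO liver, KO5, and the log2 difference was -1.98 (standard error 0.41, adjusted p = 0.0159). The bounds that the deposited tables give beside each FPKM spanned a median of 60.7% of the value to either side for *Timp1*, against 4.44% for *Dcn*. *Timp2* ran from 3.48 to 6.57 FPKM (median 5.63) in WT and from 1.74 to 4.51 FPKM (median 3.62) in *Gpr180*KO livers, a log2 difference of -0.64 (adjusted p = 0.0322; 0.0666 with median-of-ratios scaling). *Timp3*, whose product is bound to the matrix, ran from 3.79 to 9.59 FPKM (median 7.17) in WT and from 3.44 to 7.81 FPKM (median 6.18) in *Gpr180*KO livers, a log2 difference of -0.20 (adjusted p = 0.506). *Timp1* lies on the opposite strand within *Syn1*, and *Timp3* within *Syn3*, and whether reads were assigned by strand is not given in the sources used here. *Syn1* had a mean of 0.229 FPKM in WT and 0.181 FPKM in *Gpr180*KO livers, and *Syn3* had 0.358 and 0.35 FPKM.

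Of the 5 metalloproteinase genes, 4 were tested, *Mmp12* and *Mmp2* fell, and *Mmp14* and *Mmp19* did not pass the test. *Mmp12*, the macrophage elastase gene, ran from 0.353 to 6.98 FPKM (median 3.07) in WT and from 0.0997 to 1.41 FPKM (median 0.37) in *Gpr180*KO livers. The log2 difference was -1.92 (standard error 0.52, adjusted p = 0.0404; 0.0605 with median-of-ratios scaling), and it was -1.23 in series 1 and -2.47 in series 2. *Mmp2*, the gene of gelatinase A, ran from 0.635 to 3.13 FPKM (median 1.86) in WT and from 0.549 to 1.40 FPKM (median 0.786) in *Gpr180*KO livers, a log2 difference of -0.97 (adjusted p = 0.0324; 0.0459 with median-of-ratios scaling). *Mmp14*, the gene of the membrane-bound activator of MMP2, ran from 11.2 to 16.5 FPKM (median 14.5) in WT and from 8.39 to 14.7 FPKM (median 9.47) in *Gpr180*KO livers, a log2 difference of -0.39 (adjusted p = 0.0624). It was called with the series as a block (adjusted p = 0.0115) and without WT9 (0.0337). *Mmp19* had a log2 difference of -0.17 and an adjusted p of 0.491. It overlaps the opposite-strand gene *Tmem198b*, which had a mean of 7.95 FPKM in WT and 8.44 FPKM in *Gpr180*KO livers.

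**Figure D3:**
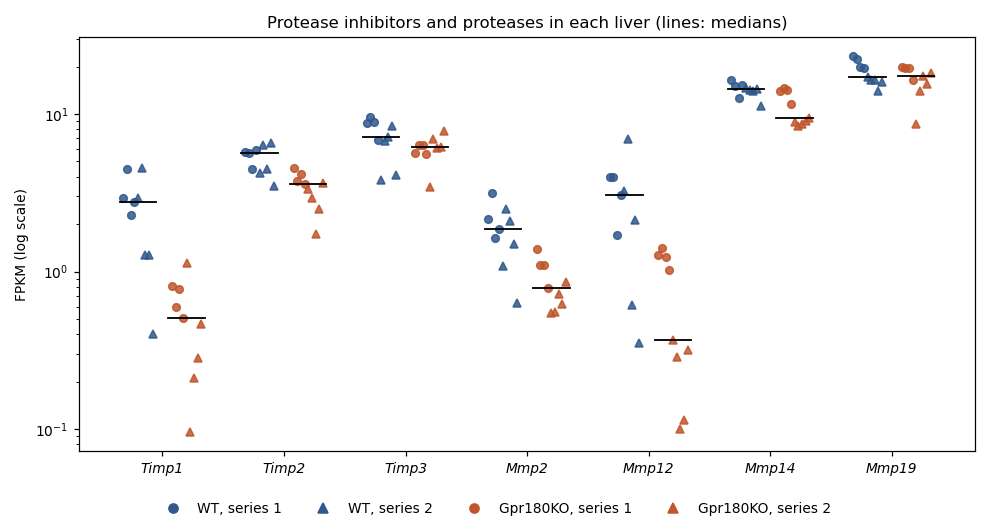
FPKM (y axis, log scale) of 3 inhibitor and 4 metalloproteinase genes in each liver; circles are series 1, triangles are series 2 and lines are medians of 9 mice. The medians of *Timp1* (2.75 and 0.511 FPKM) and *Mmp12* (3.07 and 0.37 FPKM) are far apart, while those of *Mmp19* (17.1 and 17.3 FPKM) are side by side.

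Whether genes of 1 family differed from each other in their change was tested within each library, on the log2 difference between both genes, which scaling between libraries leaves unaltered apart from the pseudocount. These tests were chosen after the values were seen. They covered 33 pairs in 6 families with a two-sided exact permutation test (48620 splits), adjusted over the pairs, of which 12 passed. In *Gpr180*KO livers *Timp1* was lower relative to *Timp3* by -1.77 on the log2 scale (exact permutation test, p = 0.00197, adjusted p = 0.0182), and relative to *Timp2* by -1.34 (exact p = 0.00276, adjusted p = 0.0182). *Timp2* and *Timp3* did not differ detectably in their change (-0.44, exact p = 0.0579). *Mmp12* was lower relative to *Mmp19* by -1.75 (exact p = 0.00621, adjusted p = 0.0256) and *Mmp2* relative to *Mmp19* by -0.80 (exact p = 0.00247, adjusted p = 0.0182). *Mmp12* was also lower relative to its neighbour *Mmp13* (-0.72, exact p = 0.00839, adjusted p = 0.0274), a difference of 0.0796 in series 1 and -1.36 in series 2. *Thbs1* was lower relative to *Thbs2* by -1.12 (exact p = 0.000288, adjusted p = 0.00475), and *Lama4* was higher relative to *Lamc1* by 0.62 (exact p = 0.000165, adjusted p = 0.00475). None of the 3 lysyl oxidase pairs and 6 fibulin pairs passed (lowest adjusted p = 0.212, exact permutation tests). The 7 differences named kept an exact p under 0.05 when any 1 library was left out (highest p = 0.0183, exact permutation test, for *Mmp12* and *Mmp13* without WT6). With a pseudocount of 1 the sizes were -0.59 for *Timp1* to *Timp2*, -0.93 for *Timp1* to *Timp3*, -0.93 for *Mmp12* to *Mmp19*, -0.43 for *Mmp2* to *Mmp19* and -0.55 for *Thbs1* to *Thbs2*. In series 2 alone 3 did not pass the exact permutation test, *Timp1* to *Timp2* (p = 0.119), *Timp1* to *Timp3* (p = 0.0556) and *Mmp2* to *Mmp19* (p = 0.0873), and in series 1 alone *Lama4* to *Lamc1* (p = 0.0571) and *Mmp12* to *Mmp13* (p = 0.486) did not.

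The 11 genes below the level filter were *Thbs2*, *Tnc*, *Vcan*, *Lama2*, *Fbn1*, *Eln*, *Fbln1*, *Fbln2*, *Lox*, *Loxl1* and *Mmp13*. Their WT means were 0.153 (*Vcan*) to 1.23 FPKM (*Eln*), and each *Gpr180*KO mean was lower than the WT mean. *Tnc*, which encodes the matricellular protein tenascin C, ran from 0.158 to 2.76 FPKM (median 0.798) in WT and from 0.0562 to 0.482 FPKM (median 0.185) in *Gpr180*KO livers (two-sided exact permutation test, unadjusted p = 0.00132). *Lox*, the gene of lysyl oxidase, ran from 0.112 to 0.831 FPKM (median 0.385) in WT and from a value listed at 0 to 0.217 FPKM (median 0.114) in *Gpr180*KO livers (exact permutation test, unadjusted p = 0.00107). *Fbn1*, the gene of fibrillin 1, ran from 0.428 to 1.61 FPKM (median 1.08) in WT and from 0.24 to 0.659 FPKM (median 0.506) in *Gpr180*KO livers (exact permutation test, unadjusted p = 0.000576). *Loxl1* had the lowest unadjusted exact permutation p of the 11, 0.000411, with a log2 difference of -1.13. The highest was that of *Fbln1*, 0.0899. With the minimum lowered to 0.1 FPKM, 10 of the 11 entered the limma fit and 5 fell (*Thbs2*, *Tnc*, *Fbn1*, *Lox* and *Loxl1*), against 7.48% of the 3181 genes with a mean between 0.1 and 1 FPKM. *Mmp13*, which lies 64.0 kb from *Mmp12*, had means of 0.638 and 0.177 FPKM and an adjusted p of 0.0788 in that fit. *Vcan*, at means of 0.153 and 0.0331 FPKM, was listed at 0 in 1 library.

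Averaged over the 42 genes, the level in mean log2(FPKM + 0.1) was 1.90 ± 0.40 (SD, n = 9) in WT and 1.09 ± 0.32 (SD, n = 9) in *Gpr180*KO livers. WT9, at 1.03, was the 1 WT liver within the *Gpr180*KO range of 0.572 to 1.53, and the next lowest WT liver was at 1.75. The gap to the median of all genes tested in the same library was -1.07 ± 0.33 in WT and -1.73 ± 0.26 in *Gpr180*KO livers (SD, n = 9). In series 1 the average was 2.11 ± 0.27 in WT and 1.38 ± 0.12 in *Gpr180*KO livers (SD, n = 4), and all 4 *Gpr180*KO livers were below every WT liver. In series 2 it was 1.74 ± 0.43 and 0.865 ± 0.225 (SD, n = 5), and 4 of 5 *Gpr180*KO livers were below WT9. Of the 42 genes, 40 had a lower *Gpr180*KO mean after median-of-ratios scaling, the exceptions being *Ecm1* and *Lama4*. By gene, the *Gpr180*KO mean as deposited was the lower of both for 41 of the 42 in each series, the exceptions being *Fn1* in series 1 and *Timp3* in series 2. Series 1 alone gave 16 genes that fell, against 4.50% of all genes tested. Series 2 alone gave 0 at an adjusted p under 0.05 in limma, as it did over all 10835 genes, and 22 of the 31 at an unadjusted p under 0.05, against 16.5% of all genes. The interaction of series and genotype passed for 0 of the 31 genes after adjustment. Unadjusted, limma gave 2 of the 31 a p under 0.05 for it, a share no larger than the 7.69% of all genes tested. They were *Mmp14*, with a log2 difference of -0.12 in series 1 and -0.61 in series 2, and *Efemp1*, with -0.27 and -0.72.

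**Figure D4:**
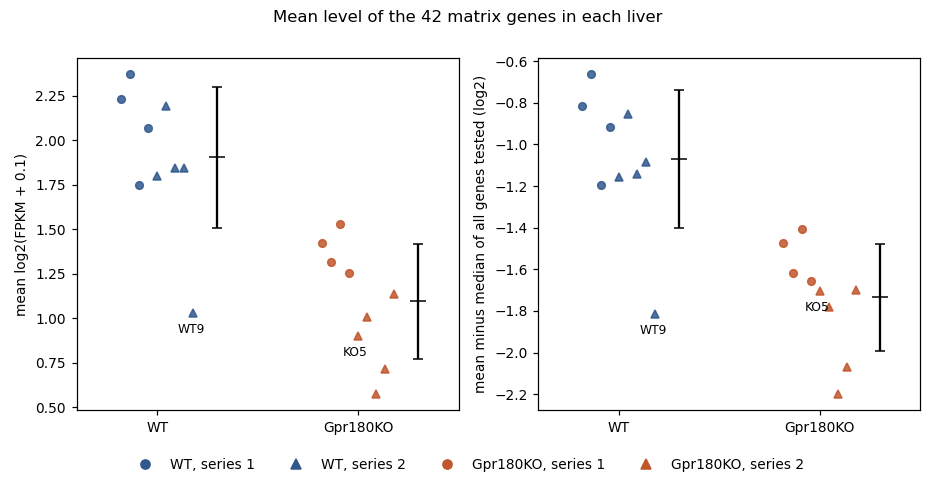
Mean log2(FPKM + 0.1) of the 42 genes in each liver (left) and the same mean minus the median of all genes tested in that library (right, log2); circles are series 1, triangles are series 2, and bars are the mean and SD of 9 mice. WT9, at 1.03 on the left, lies among the *Gpr180*KO livers, and the other WT livers, from 1.75 upward, lie above all of them.

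Other genes of the matrix and its processing, 109 in a list of their own, were set beside them. This list, too, was chosen with earlier results of these data known. Of the 108 found, 44 were tested, 4 fell and 0 rose, with a median log2 difference of -0.39. At an unadjusted p under 0.05 in limma there were 23 in either direction, against 2403 of all 10835 genes. Of these 23, *Vtn* was higher in *Gpr180*KO livers and the rest were lower. *Vtn* had means of 752.7 FPKM in WT and 902.7 FPKM in *Gpr180*KO livers (log2 difference 0.26, limma adjusted p = 0.0622). With median-of-ratios scaling its adjusted p in limma was 0.0428. The share that fell is to be read against the 4.28% of all genes. The 4 genes were *Spp1*, which encodes osteopontin (log2 difference -1.96), *Dpt*, the gene of dermatopontin (-1.07), *Smoc2* (-1.04) and *Prelp* (-0.51). The count was 15 without WT9 (7.79% of all genes fell in that fit), 9 without KO1 (5.03%), 8 without KO5 (6.36%) and 17 without both WT9 and KO5 (10.4%). With median-of-ratios scaling *Prelp* was not called (adjusted p = 0.0728). Of 17 collagen genes, 14 were tested and 9 fell, or 7 with median-of-ratios scaling, with a median log2 difference of -0.90.

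Marker genes of cell types that make or modify matrix were read beside these results, and their part in them was not tested. Of all genes tested, 4.28% fell and 0.452% rose, and 19.6% were lower at an unadjusted p under 0.05 in limma. Of 11 stellate cell markers tested, *Pdgfrb* and *Dcn* fell, and 6 had an unadjusted p under 0.05 in limma, all of them lower. The list summed to 251 to 332 FPKM in WT and 148 to 242 FPKM in *Gpr180*KO livers. *Dcn* (means of 144.5 and 89.7 FPKM) and *Ecm1* (65.4 and 61.4 FPKM), which make up most of that sum, also belong to the matrix genes. The median log2 difference of the 11 was -0.32. Of 8 tested markers of lipid-associated macrophages, *Gpnmb*, *Trem2*, *Mmp12*, *Spp1* and *Cd63* fell (median log2 difference -1.58), or 3 with median-of-ratios scaling, where *Gpnmb* (adjusted p = 0.056) and *Mmp12* (0.0605) were not called. Their list summed to 110.2 to 335 FPKM in WT and 70.6 to 156 FPKM in *Gpr180*KO livers. *Spp1* (means of 133.5 and 30.4 FPKM), a large part of that sum, is also among the other matrix genes that fell. *Mmp12* is also one of the matrix genes examined here. Of the 9 Kupffer cell and 8 sinusoidal endothelial markers, limma called 0 in either direction, also at an unadjusted p under 0.05. The Kupffer cell markers summed to 245 to 511 FPKM in WT and 262 to 443 FPKM in *Gpr180*KO livers, and the endothelial markers to 121 to 206 and 111 to 183 FPKM. Portal fibroblast markers, 3 of which are matrix genes examined here, summed to 21.3 to 67.4 FPKM in WT and 11.1 to 40.9 FPKM in *Gpr180*KO livers, and 0 of the 3 tested were called (3 at an unadjusted p under 0.05 in limma). Smooth muscle markers summed to 3.54 to 22.1 FPKM and 4.69 to 12.3 FPKM, the lowest WT liver being WT9, and 0 of 2 tested were called (2 at an unadjusted p under 0.05 in limma). Without WT9 both, *Acta2* (adjusted p = 0.00393) and *Tagln* (0.00716), were called lower. Mesothelial and lymphocyte markers had no gene above the level filter, with sums of at most 3.11 and 5.33 FPKM in any liver. Of the biliary markers *Sox9* alone was tested, and it fell (log2 difference -0.70, not called with median-of-ratios scaling). Adipocyte markers, led by *Cidec*, summed to 17.1 to 75.7 FPKM in WT and 1.65 to 59.1 FPKM in *Gpr180*KO livers, with *Plin1* listed at 0 throughout, and *Cidec* was not called. Of 8 hepatocyte markers *Serpina1c* rose (log2 difference 0.52).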

How the data were processed

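The authors prepared poly(A) libraries with a TruSeq mRNA kit, sequenced single reads, aligned them to mm10 (GRCm38) with TopHat and deposited FPKM values with a lower and an upper bound and a status for 23847 entries per mouse. The tool that computed FPKM and its annotation are not given in the sources used here. The files hold no counts, so the read depth behind single values is unknown, and no columns of per-sample values were left unused. FPKM values of entries that share a symbol were summed (23352 symbols), and the 24 genes with any failed estimate were dropped. None of the 42 genes was among them. Genotype was taken from the sample labels. Each replicate is 1 mouse, so p-values set the genotype difference against the variation between mice. Without a series term this variation includes the difference between the series.

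The 10835 genes whose FPKM averaged 1 or more were fitted on log2(FPKM + 0.1) in limma 3.58.1 under R 4.3.3 (lmFit, eBayes with trend), p-values were adjusted by Benjamini-Hochberg over all of them, and the threshold was 0.05. Genes below that level, and differences between genes of a family, were compared by exact permutation, two-sided, of the 48620 ways to split the livers 9 to 9, with numpy 2.4.6, pandas 2.3.3 and scipy 1.17.1 under Python 3.11.15. The fits were tested on simulated data first. Positions and promoters are from the deposited loci, GENCODE vM21 and RefSeq (GRCm38.p6). Plots used matplotlib 3.10.9. The genes and lists were chosen with earlier results of these data known. All 42 genes are accounted for: values by range are given for those called and for the 3 with the highest mean. They are also given for *Serpinh1* and *Mmp14*, close to the threshold, and for *Tnc*, *Lox* and *Fbn1*, below the filter. *Timp3*, which is neither, was shown with the other TIMP genes. All of these further genes were chosen after their values were seen. Other matrix genes and markers are named where called, and *Vtn* because some alternatives called it. Alternatives were other pseudocounts (1, 0.01), minimums (0.1, 5, none), scalings (median-of-ratios, 75th percentile, TPM), the series as a block or alone, other variance models, weights per library, failed estimates kept at 0, and each library left out. Leaving out WT9 and KO5 together, and all alternatives for family differences, were added after seeing the data.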

Additional observations from a re-analysis of the deposited data

Results flagged for a closer look

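In 6 of 84 groups (42 genes in 2 genotypes) the highest or lowest liver stood apart from the other 8 by more than Dixon's 95% critical value for 9 samples. Chance flags about 1 in 20 such groups. In *Gpr180*KO livers KO5 was low for 3 genes: *Fn1* was at 92.65 FPKM against 217.3 to 263.6 FPKM in the others, *Mmp19* at 8.581 FPKM against 14.01 to 19.89 FPKM, and *Timp3* at 3.439 FPKM against 5.54 to 7.812 FPKM. KO5 also had the highest sum of FPKM of all 18 libraries, 718746, against 554796 in the lowest. KO7 was low for *Efemp1*, at 3.436 FPKM against 4.805 to 6.116 FPKM. In WT livers WT9 was low for *Lum*, at 3.473 FPKM against 6.779 to 13.28 FPKM, and for *Fbln2*, at 0.09254 FPKM against 0.635 to 1.894 FPKM.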

How the results depend on the processing

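The direction of the average log2 difference of the 31 genes, -0.75, was negative under every alternative run. The number of genes that fell, 18 (4.28% of all genes), was 7 of 15 with a minimum of 5 FPKM (2.97%). It was 11 with median-of-ratios (1.36%) and 11 with 75th percentile scaling (1.59%). In series 2 alone it was 0, where no gene of the 10835 was called. There 22 of the 31 had an unadjusted p under 0.05 in limma, against 16.5% of all genes. It was 8 to 22 when 1 library was left out (1.07 to 7.79%). All 18 were called when the series was a block term, which gave 21, and 17 when median-of-ratios was added to it. Over all genes 464 fell and 49 rose, or 147 and 146 with median-of-ratios. No paired analysis was possible because mouse numbers name animals and pair no samples.

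Of the other matrix genes, 4 fell (4.28% of all genes, the later brackets giving that share in each fit). The number was 15 with a minimum of 0.1 FPKM (5.54%), 2 with 5 (2.97%) and 12 with none (3.40%). These 3 fits also tested other numbers of genes. It was 8 with TPM (4.95%), 14 with the block (9.52%) and 7 with the block and median-of-ratios (3.06%). In series 1 it was 9 (4.50%) and in series 2 it was 0 (0.00%). With weights per library 18 fell (10.7%), and without WT9 and KO5 17 fell (10.4%). When 1 library was left out it was 3 to 15 (1.07 to 7.79%). The number that rose, 0, was 1 with median-of-ratios, 75th percentile scaling, the block, the block and median-of-ratios, weights, and without both libraries, and 0 to 1 when 1 library was left out. With median-of-ratios, with the block and with both together the gene that rose was *Vtn* (limma adjusted p = 0.0428, 0.0371 and 0.02).

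The log2 difference changed sign for *Fn1* in series 1 (0.094), with weights (0.0154) and without both libraries (0.0155), for *Ecm1* with median-of-ratios with or without the block (0.0208), for *Lama4* with the same (0.0356) and with 75th percentile scaling (0.0059), and for *Timp3* in series 2 (0.0312). The *Mmp12* to *Mmp13* difference changed sign in series 1 (0.0796). Of 1069 values for single genes, 930 kept direction and call, 109 lost and 21 gained the call. The cause of these changes was not tested. The deposited bounds limit single genes, with medians from 1.49% of the value for *Fn1* to 60.7% for *Timp1* and 94.8% for *Vcan*.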
